A study of Homo sapiens with 10 samples.

Results

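The human genes for matrix metalloproteinases (MMPs), for ADAMTS proteases and for their tissue inhibitors (TIMPs) were examined by RNA sequencing in the untreated cell lines EA.hy926 and HMEC-1. Members were all protein-coding genes of the count table whose symbol in GENCODE 44 was MMP or ADAMTS followed by a number only, or TIMP1 to TIMP4. This gave 45 of the 60448 genes in the table, of which 22 were MMP, 19 were ADAMTS and 4 were TIMP genes. EA.hy926 is a somatic hybrid with a macrovascular parent (HUVEC, from the umbilical cord) and a lung carcinoma parent (A549). HMEC-1 comes from small vessels of the skin and owes its unlimited growth to the large T antigen of SV40. Each line was represented by 5 libraries, described as independent biological replicates. EA.hy926 was grown in Advanced DMEM with 5% fetal bovine serum. HMEC-1 was grown in a different basal medium with 10% serum plus hydrocortisone at 1 µg/mL and epidermal growth factor (EGF) at 10 ng/mL. Line and medium therefore cannot be told apart, and neither line is primary endothelium.

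MMPs are zinc-dependent endopeptidases that are made as inactive zymogens and, once activated, cleave collagens, gelatin, laminins and many cell surface proteins. ADAMTS proteases carry thrombospondin repeats that hold them in the matrix, and they process procollagens, large proteoglycans such as versican and aggrecan, and von Willebrand factor. TIMPs bind the active site of these enzymes, and endothelial cells use this balance when they sprout, invade the basement membrane and remodel it.

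The libraries held 34846046 to 39899324 counts in EA.hy926 against 33391640 to 43877224 in HMEC-1. Levels are given as counts-per-million (CPM) relative to library sizes scaled by trimmed mean of M-values, and n is 5 libraries per line throughout. Positive log2 fold changes (log2FC) mean higher in EA.hy926. Adjusted p-values are Benjamini-Hochberg values of edgeR's quasi-likelihood test over 16310 genes, and a gene was called when the adjusted p was below 0.05 and the log2FC above 1 or below -1. Where every library of a line had at most 3 counts (0.0651 to 0.0904 CPM), only a lower bound of the fold is given, from the mean of the other line over the CPM of 3 counts in the library where that value is highest. Reads carried no molecular identifiers, so this floor covers counting error only. An adjusted p printed beside a bound of the fold belongs to the fitted log2FC and does not test the bound. A marker was taken to exceed 3 counts in a line when at least 1 library of that line did. All 12 endothelial markers examined, among them PECAM1, CDH5 and VWF, exceeded 3 counts in both lines, with summed levels of 4777 to 5443 CPM in EA.hy926 against 1747 to 1798 CPM in HMEC-1. Of 12 epithelial markers, 8 did so in each line (1276 to 1389 and 429 to 492 CPM), while CDH1, ESRP1 and GRHL2 were among those that did not. Of 12 fibroblast and mural markers, 7 exceeded 3 counts in EA.hy926 against 10 in HMEC-1 (461 to 525 and 591 to 618 CPM), with DCN and LUM at 0 in both. Of 10 leukocyte markers, 6 and 4 exceeded it, and they summed to 9.60 to 12.4 and 0.737 to 1.26 CPM. These sums weigh the most abundant genes of a list most. Called higher in EA.hy926 were 7 of 12 tested endothelial, 2 of 8 epithelial and 3 of 9 fibroblast and mural markers. Called lower were 1, 3 and 6 of them, and of 2 tested leukocyte markers 1 was called in each direction. Over all genes tested, 19.1% were called higher and 16.4% lower. The part of these marker differences in the results was not tested. In bulk RNA, fewer cells expressing a gene and less RNA of it per cell cannot be told apart.

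Of the 45 members, 30 passed the filter on low counts and were tested, and 20 of these (66.7%) were called, against 35.5% of all genes tested. EA.hy926 was higher in 8 members, where 19.1% of all genes were called higher, and lower in 12 members, where 16.4% of all genes were called lower. Over both directions, 29 of the 30 had an adjusted p below 0.05 whatever the fold, against 85.8% of all genes tested. Of these, 9 members had a log2FC between -1 and 1. MMP25 was the only tested member with an adjusted p above 0.05. The CPM ranges of the lines did not overlap for 28 of the 30 tested members, against 77.4% of all genes tested, and they overlapped for MMP24 and MMP25. In 8 of the 20 called members, the libraries of one line were at or below 3 counts, so that they entered the test through the other line alone. ADAMTS4, ADAMTS13 and ADAMTS17 had more than 3 counts in some EA.hy926 libraries but fewer than 10 in most or all of them, and they too passed the filter through HMEC-1. The median log2FC was -0.81 over the 30 tested members, 0.57 over 13 MMP genes, -1.79 over 13 ADAMTS genes and 0.07 over 4 TIMP genes, against -0.010 over all genes tested. The medians of the members leave out those removed by the filter, and most ADAMTS genes called lower passed it through HMEC-1 alone. Replacing the fitted values of the 8 members at the floor by their bounds left these 4 medians as they were. The MMP median is the value of MMP25, the tested member with an adjusted p above 0.05. By family, 5 MMP genes were called higher and 3 lower in EA.hy926, 2 ADAMTS genes were called higher and 8 lower, and 1 TIMP gene was called in each direction. The plot of CPM by library shows these levels for every tested member, and the plot of log2FC shows the differences between the lines.

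**Figure D1:**
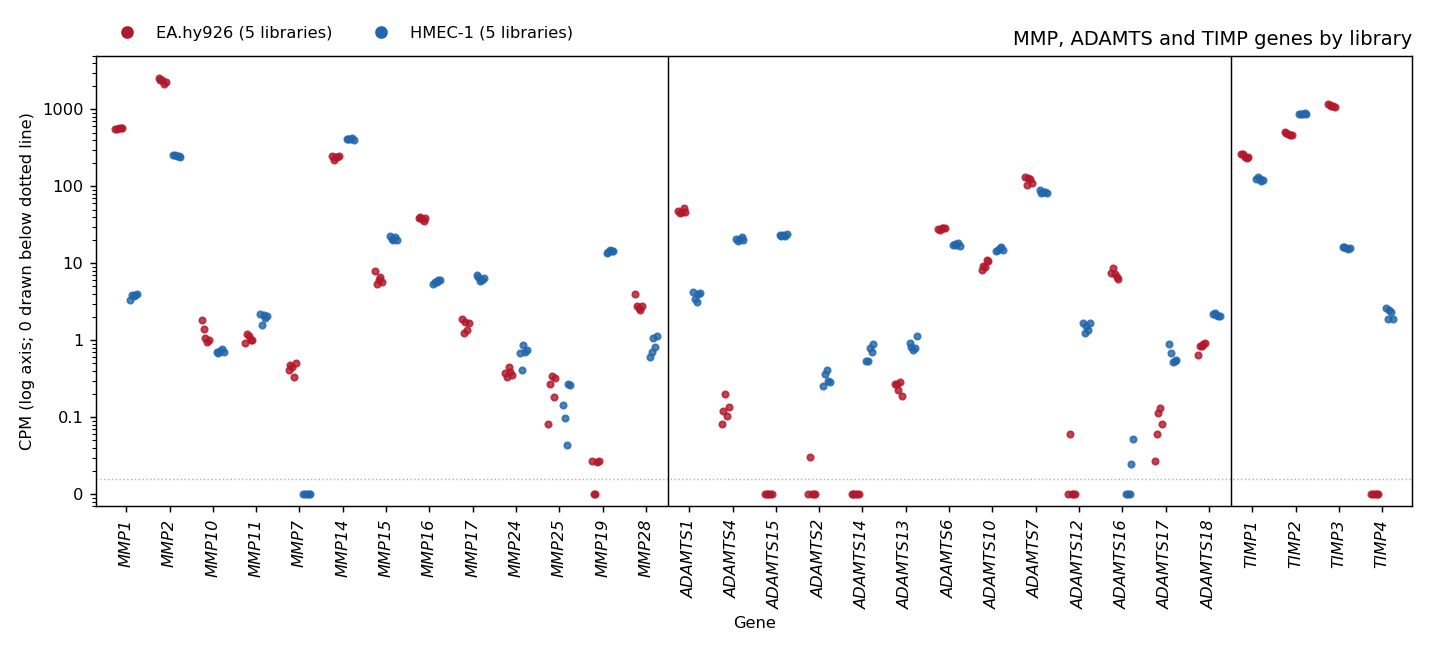
CPM of each tested member on a log axis, with 1 point per library, 5 libraries of EA.hy926 and 5 of HMEC-1, and libraries at 0 drawn below the dotted line. Points of the lines are separate for every tested member other than MMP24 and MMP25.

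**Figure D2:**
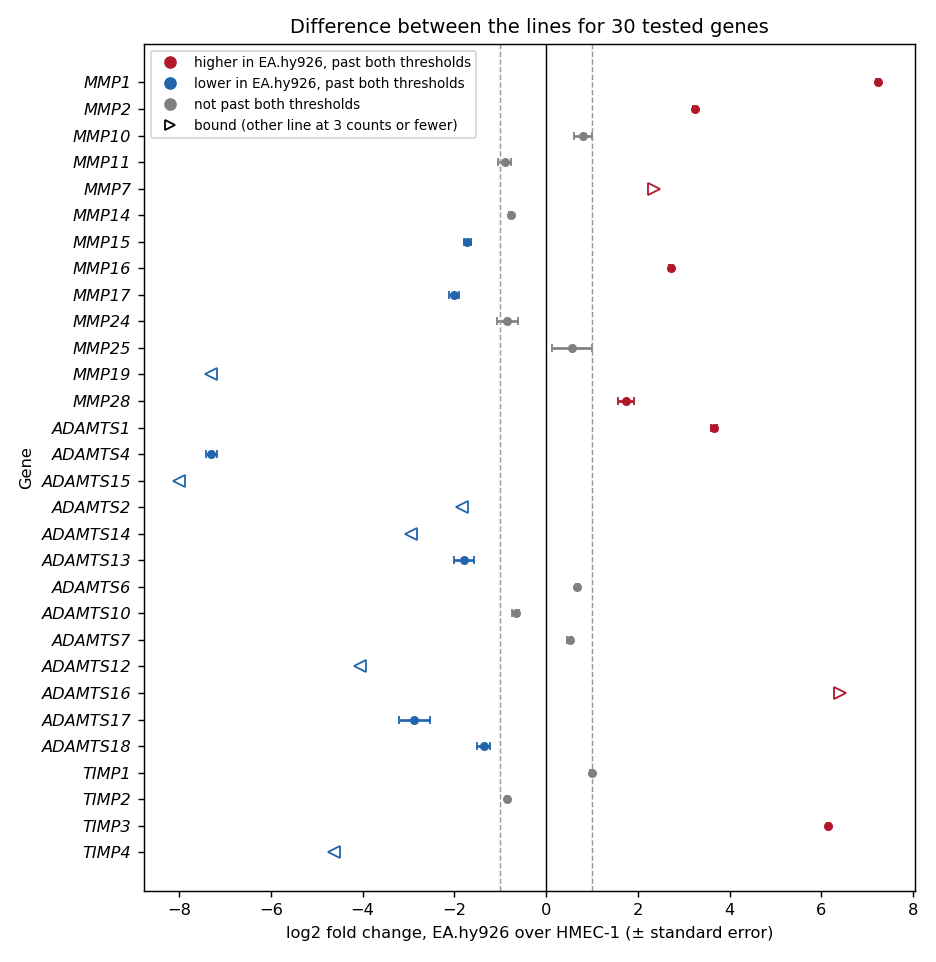
Log2FC of the 30 tested members, with positive values higher in EA.hy926 and error bars of 1 SE, and with triangles at the log2 of the bound for the 8 members at the floor in a line and dashed lines at the fold threshold. MMP1 is drawn at 7.24 and the bound of ADAMTS16 at 6.40, and on the lower side are ADAMTS4 (-7.30) and the bounds of MMP19 (-7.31) and ADAMTS15 (-8.01).

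The TIMP genes differed in both directions, with TIMP3 called higher and TIMP4 called lower in EA.hy926. TIMP3 encodes an inhibitor that is bound to the matrix and acts on MMPs, ADAMTS proteases and ADAM17 (ENSG00000100234, chr22:32801705-32863041, plus strand). It had 1191, 1125, 1121, 1091 and 1081 CPM in the 5 EA.hy926 libraries and 16.3, 16.2, 15.6, 15.3 and 15.7 CPM in the 5 HMEC-1 libraries. The lowest EA.hy926 library was far above the highest HMEC-1 library. The means were 1122 ± 43.2 CPM against 15.8 ± 0.398 CPM (SD), a 71.0-fold difference (log2FC 6.15, SE 0.0356, adjusted p = 1.5e-29). TIMP4, a secreted inhibitor with restricted tissue distribution (ENSG00000157150, chr3:12153068-12158912, minus strand), had 0 counts in each EA.hy926 library and 91, 77, 114, 95 and 72 counts in the HMEC-1 libraries. All HMEC-1 libraries were above the floor and no EA.hy926 library held a read of it. Its EA.hy926 level was at least 24.7-fold lower (adjusted p = 1.8e-12).

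TIMP1 and TIMP2, the soluble inhibitors found in most tissues, differed less. TIMP1, which forms a complex with the MMP9 zymogen (ENSG00000102265, chrX:47582408-47586789, plus strand), had 262, 262, 240.0, 236 and 239 CPM in the 5 EA.hy926 libraries and 125, 134, 123, 118 and 122 CPM in the 5 HMEC-1 libraries. The ranges were separate, with all EA.hy926 libraries higher. The difference of 1.99-fold lay just inside the fold threshold (log2FC 0.99, SE 0.0362, adjusted p = 1.7e-16), so TIMP1 was not called. TIMP2, which also serves as the bridge between MMP14 and the MMP2 zymogen at the cell surface (ENSG00000035862, chr17:78852977-78925387, minus strand), had 515, 487, 479, 464 and 471 CPM in the 5 EA.hy926 libraries and 873, 877, 873, 889.6 and 868 CPM in the 5 HMEC-1 libraries. Here every HMEC-1 library was above every EA.hy926 library, and the log2FC was again below the fold threshold (log2FC -0.86, SE 0.0266, adjusted p = 9.5e-18). TIMP1, TIMP3 and TIMP4 each lay within a synapsin gene on the opposite strand (SYN1, SYN3 and SYN2). Exons of other genes covered 14.2% of the TIMP4 exons, and SYN2 itself had 0 to 2 counts in EA.hy926 against 22 to 28 in HMEC-1. Whether counting used strand is not given in the sources used here, so reads of overlapping opposite genes cannot be told apart.

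The promoters of the inhibitors with opposite differences are shown because both are GC-rich and differ in their number of GC boxes. The RefSeq sequences (GRCh38.p14) cover the 250 bases before the start, at chr22:32801455-32801704, plus strand for TIMP3 and at chr3:12158913-12159162, minus strand for TIMP4, written 5′ to 3′ on the strand of the gene. Capitals mark the GC box GGGCGG or its reverse complement CCGCCC, of which TIMP3 has 5 and TIMP4 has 1 in these bases. A match of letters is a description of the sequence and does not show binding.
TIMP3: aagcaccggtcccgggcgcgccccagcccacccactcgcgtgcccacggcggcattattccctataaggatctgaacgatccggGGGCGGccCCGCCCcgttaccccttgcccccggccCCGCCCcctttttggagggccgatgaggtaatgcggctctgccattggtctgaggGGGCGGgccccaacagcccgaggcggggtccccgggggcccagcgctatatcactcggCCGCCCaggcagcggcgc
TIMP4: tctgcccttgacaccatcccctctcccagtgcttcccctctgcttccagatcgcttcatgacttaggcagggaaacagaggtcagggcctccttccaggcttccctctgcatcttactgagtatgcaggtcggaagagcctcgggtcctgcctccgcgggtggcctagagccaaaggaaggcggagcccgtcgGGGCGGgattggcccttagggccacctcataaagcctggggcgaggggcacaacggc

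Among the collagenases and gelatinases, MMP1 and MMP2 were both called higher in EA.hy926. MMP1, the interstitial collagenase that cleaves fibrillar collagens (ENSG00000196611, chr11:102789401-102798160, minus strand), had 559.6, 557, 577, 568 and 576 CPM in the 5 EA.hy926 libraries and 3.31, 3.87, 3.73, 3.83 and 4.03 CPM in the 5 HMEC-1 libraries. No HMEC-1 library reached 5 CPM, while the EA.hy926 libraries lay close together. The means were 567 ± 9.09 CPM against 3.75 ± 0.271 CPM (SD), a 151-fold difference (log2FC 7.24, SE 0.0382, adjusted p = 4.5e-30). Exons of WTAPP1 on the opposite strand covered 8.14% of the MMP1 exons, with 2 to 8 counts of that gene in EA.hy926 against 2 to 9 in HMEC-1. MMP2, or gelatinase A, which cleaves type IV collagen and denatured collagens (ENSG00000087245, chr16:55389700-55506691, plus strand), had 2537, 2410.2, 2412, 2164 and 2271 CPM in the 5 EA.hy926 libraries and 259, 254, 245, 250.3 and 244 CPM in the 5 HMEC-1 libraries. It was abundant in both lines and higher in all EA.hy926 libraries. The means were 2359 ± 144 CPM against 251 ± 6.24 CPM (SD), a 9.41-fold difference (log2FC 3.23, SE 0.0368, adjusted p = 3.4e-25). The other gelatinase, MMP9, was not tested, with 2, 0, 1, 5 and 2 counts in the EA.hy926 libraries and 0 in each HMEC-1 library. MMP8, the neutrophil collagenase, was at 0 in all 10 libraries, and MMP13, the third collagenase, had 0 to 2 counts in EA.hy926 against 0 in HMEC-1.

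MMP1 lies in a cluster of 9 MMP genes on chromosome 11 (chr11:102520508-102955732, 435 kb, GRCh38), in the order MMP7, MMP20, MMP27, MMP8, MMP10, MMP1, MMP3, MMP12 and MMP13. MMP1 was the most abundant gene of the cluster in both lines, with 207 ± 3.32 CPM per kb of exon in EA.hy926 against 1.37 ± 0.0992 in HMEC-1. MMP10, or stromelysin-2, lies 8.77 kb from MMP1 (ENSG00000166670, chr11:102770502-102780628, minus strand), and had 1.84, 1.39, 1.08, 0.937 and 0.997 CPM in the 5 EA.hy926 libraries and 0.713, 0.686, 0.716, 0.761 and 0.707 CPM in the 5 HMEC-1 libraries. Its ranges were separate, but the log2FC was below the fold threshold (log2FC 0.80, SE 0.197, adjusted p = 8.6e-04). MMP7, or matrilysin, which lacks the hemopexin domain of most MMPs and is typical of glandular epithelium (ENSG00000137673, chr11:102520508-102530750, minus strand), had 15, 16, 16, 13 and 19 counts in EA.hy926 against 0 in each HMEC-1 library. All EA.hy926 libraries were above the floor, and their level was at least 5.13-fold higher (adjusted p = 1.9e-08). The remaining 6 genes of the cluster were not tested, and none exceeded 3 counts in any library. The plot along the cluster shows this contrast between MMP1 and its neighbours.

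**Figure D3:**
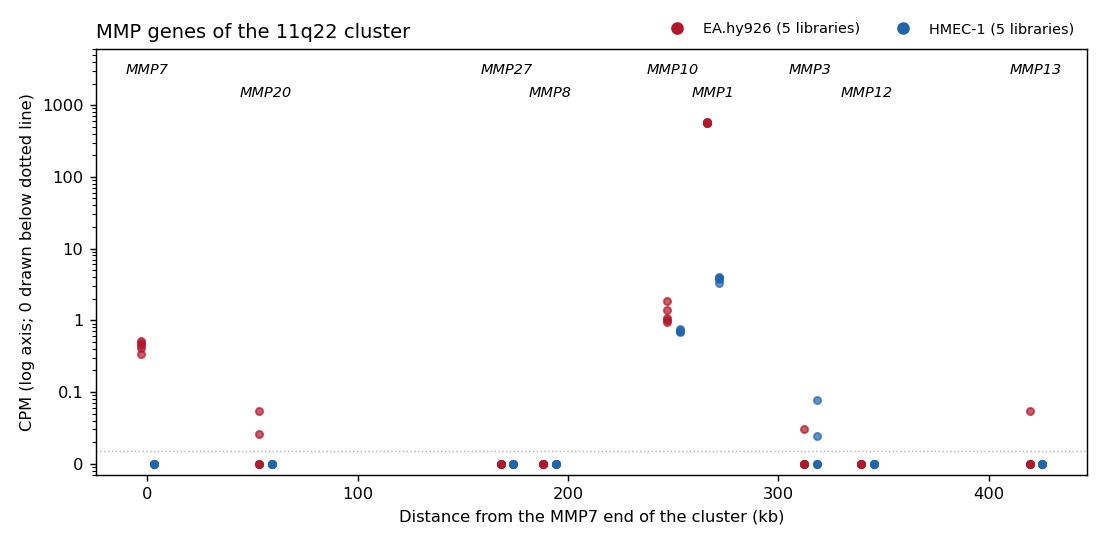
CPM (log axis, 0 drawn below the dotted line) of the 9 MMP genes of the chromosome 11 cluster against their distance in kb from the MMP7 end, with 1 point per library, 5 libraries per line. MMP1, at 557 to 577 CPM in EA.hy926, stands above its neighbour MMP10 in both lines, and 6 of the 9 genes have at most 3 counts in any library.

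The promoters of MMP7 and MMP10 are shown because these cluster genes were detected and carry the same arrangement of motifs. Both are written 5′ to 3′ on the minus strand, at chr11:102530748-102530997 for MMP7 and chr11:102780629-102780878 for MMP10 (RefSeq, GRCh38.p14). Capitals mark the AP-1 site TGANTCA, which begins 67 bases before the start in both, and the TATA box TATAAA, which begins 30 bases before the start in MMP7 and 31 in MMP10. No GC box letters are present in either window.
MMP7: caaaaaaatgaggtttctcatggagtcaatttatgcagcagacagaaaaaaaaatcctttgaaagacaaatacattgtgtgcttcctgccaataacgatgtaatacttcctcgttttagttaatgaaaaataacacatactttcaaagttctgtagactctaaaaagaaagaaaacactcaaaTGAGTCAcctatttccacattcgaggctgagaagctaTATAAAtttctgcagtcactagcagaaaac
MMP10: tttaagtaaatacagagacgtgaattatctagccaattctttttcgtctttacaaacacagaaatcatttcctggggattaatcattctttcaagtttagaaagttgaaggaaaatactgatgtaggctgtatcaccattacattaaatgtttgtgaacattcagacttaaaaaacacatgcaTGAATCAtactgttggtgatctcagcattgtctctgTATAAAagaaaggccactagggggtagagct

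Of the stromelysins, MMP3 had 0 to 1 counts in EA.hy926 against 0 to 3 in HMEC-1 and was not tested. MMP11, or stromelysin-3, which is activated inside the cell by furin (ENSG00000099953, chr22:23768226-23784316, plus strand), had 0.920, 1.21, 1.14, 1.01 and 0.997 CPM in the 5 EA.hy926 libraries and 2.17, 1.57, 2.10, 1.96 and 2.09 CPM in the 5 HMEC-1 libraries. It was higher in every HMEC-1 library, with a log2FC inside the fold threshold (log2FC -0.91, SE 0.145, adjusted p = 6.6e-06).

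The membrane-type MMPs, which are anchored at the cell surface, were all tested. Of these 6, 1 was called higher and 2 lower in EA.hy926, against 19.1% and 16.4% of all genes tested. MMP14, the activator of the MMP2 zymogen (ENSG00000157227, chr14:22836560-22849041, plus strand), was the most abundant of them and had 249.7, 223, 238, 241 and 249 CPM in the 5 EA.hy926 libraries and 414, 408, 408, 421 and 404 CPM in the 5 HMEC-1 libraries. All HMEC-1 libraries were above all EA.hy926 libraries, with a log2FC inside the fold threshold (log2FC -0.77, SE 0.0288, adjusted p = 2.4e-16). Thus MMP14 and TIMP2 were each higher in HMEC-1, and MMP2 was higher in EA.hy926. MMP15 (ENSG00000102996, chr16:58025754-58046901, plus strand), also an activator of the MMP2 zymogen, had 8.01, 5.42, 6.09, 6.71 and 5.66 CPM in the 5 EA.hy926 libraries and 22.6, 20.5, 20.2, 21.9 and 20.3 CPM in the 5 HMEC-1 libraries. The ranges were far apart, and HMEC-1 was 3.29-fold higher (log2FC -1.72, SE 0.0769, adjusted p = 6.3e-15). MMP16, a further transmembrane member that can activate the MMP2 zymogen (ENSG00000156103, chr8:88032011-88328025, minus strand), had 39.0, 39.9, 38.2, 35.7 and 38.7 CPM in the 5 EA.hy926 libraries and 5.39, 5.78, 5.79, 6.04 and 6.02 CPM in the 5 HMEC-1 libraries. Every EA.hy926 library was higher, by 6.59-fold in the fit (log2FC 2.72, SE 0.0490, adjusted p = 7.0e-22).

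MMP17, which is held by a glycosylphosphatidylinositol anchor (ENSG00000198598, chr12:131828393-131851783, plus strand), had 1.90, 1.24, 1.74, 1.38 and 1.70 CPM in the 5 EA.hy926 libraries and 7.02, 6.72, 5.86, 6.04 and 6.54 CPM in the 5 HMEC-1 libraries. HMEC-1 was higher in all libraries, by 4.03-fold (log2FC -2.01, SE 0.109, adjusted p = 2.1e-13). MMP24, a transmembrane member best known from the nervous system (ENSG00000125966, chr20:35226690-35276998, plus strand), had 0.379, 0.331, 0.456, 0.390 and 0.350 CPM in the 5 EA.hy926 libraries and 0.684, 0.417, 0.867, 0.712 and 0.759 CPM in the 5 HMEC-1 libraries. The ranges overlapped (log2FC -0.85, SE 0.233, adjusted p = 0.00206). MMP25, the other anchored member, had 0.0812, 0.271, 0.342, 0.182 and 0.323 CPM in the 5 EA.hy926 libraries and 0.143, 0.0980, 0.0434, 0.270 and 0.262 CPM in the 5 HMEC-1 libraries. These values overlapped as well, and the test did not pass (log2FC 0.57, SE 0.440, adjusted p = 0.232). Exons of other genes covered 22.1% of the MMP24 exons and 30.6% of the MMP25 exons. The overlapping MMP24OS had 895 to 1005 counts in EA.hy926 against 1330 to 1681 in HMEC-1, and MMP25-AS1 had 116 to 144 and 36 to 47, so the MMP24 and MMP25 values are uncertain.

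Among the other MMPs, MMP19 and MMP28 were called in opposite directions. MMP19, a protease of basement membrane components (ENSG00000123342, chr12:55835433-55842966, minus strand), had 1, 0, 0, 1 and 1 counts in EA.hy926 against 484, 580, 679, 587 and 555 counts in HMEC-1. EA.hy926 was at the floor, and HMEC-1 was uniformly above it. Its EA.hy926 level was at least 159-fold lower (adjusted p = 5.8e-22). Exons of TMEM198B on the opposite strand covered 17.6% of its exons, with 156 to 198 counts of that gene in EA.hy926 against 364 to 444 in HMEC-1. MMP28, or epilysin, known from epidermis (ENSG00000271447, chr17:35756249-35795707, minus strand), had 3.98, 2.80, 2.65, 2.47 and 2.78 CPM in the 5 EA.hy926 libraries and 0.599, 0.711, 1.08, 0.810 and 1.15 CPM in the 5 HMEC-1 libraries. All EA.hy926 libraries were higher, and the highest of them, replicate 1, stood apart. The fitted difference was 3.34-fold (log2FC 1.74, SE 0.177, adjusted p = 9.0e-09).

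Of the 13 tested ADAMTS genes, 8 were called lower in EA.hy926, against 16.4% of all genes tested, and 2 were called higher, against 19.1%. The difference from the MMP genes was not tested, and 7 of the 8 (ADAMTS2, ADAMTS4, ADAMTS12, ADAMTS13, ADAMTS14, ADAMTS15 and ADAMTS17) passed the low-count filter through HMEC-1 alone. Without the filter, ADAMTS3 (log2FC 2.37), ADAMTS9 (4.02), ADAMTS19 (2.24) and ADAMTS20 (4.52) were also called higher, on few counts. ADAMTS5 (-1.34) and ADAMTS8 (-2.48) were not called in that run. The counts by direction therefore depend on the filter. The ADAMTS proteoglycanases, which cleave versican, aggrecan and related proteoglycans, split by gene. ADAMTS1, the founding member, also described as an inhibitor of angiogenesis (ENSG00000154734, chr21:26835755-26845409, minus strand), had 47.4, 45.2, 47.0, 51.7 and 46.2 CPM in the 5 EA.hy926 libraries and 4.22, 3.48, 3.17, 3.97 and 4.16 CPM in the 5 HMEC-1 libraries. EA.hy926 was above HMEC-1 in all libraries, by 12.6-fold (log2FC 3.65, SE 0.0636, adjusted p = 3.9e-22). ADAMTS4, an aggrecanase (ENSG00000158859, chr1:161184302-161199054, minus strand), had 3, 4, 7, 4 and 5 counts in EA.hy926 against 720, 802, 948, 902 and 757 counts in HMEC-1. Means were 0.128 ± 0.0446 CPM against 20.5 ± 0.981 CPM (SD), and HMEC-1 was 157-fold higher (log2FC -7.30, SE 0.116, adjusted p = 8.2e-23). The EA.hy926 libraries were thus close to the floor but not all at it, and this fold rests on 3 to 7 counts per EA.hy926 library.

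ADAMTS15, a versican-cleaving protease (ENSG00000166106, chr11:130448645-130476645, plus strand), had 0 counts in each EA.hy926 library and 817, 930, 1083, 922 and 919 counts in HMEC-1. Its EA.hy926 level was at least 257-fold lower (adjusted p = 3.5e-20). This was the largest bound among the 8 members at the floor in a line. Its neighbour ADAMTS8, 20.04 kb away on chromosome 11, had 0 counts in EA.hy926 against 0 to 1 in HMEC-1. On chromosome 21, ADAMTS5, 72.5 kb from ADAMTS1, had 0 counts in EA.hy926 against 0 to 1 in HMEC-1. The main aggrecanases of cartilage are ADAMTS4 and ADAMTS5, and only the former was above the floor in HMEC-1. ADAMTS9 had 9, 4, 6, 5 and 15 counts in EA.hy926 against 1, 0, 0, 0 and 1 in HMEC-1, and ADAMTS20 had 0 to 5 and 0, both without a test.

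The procollagen N-proteinases, which remove the amino-terminal propeptides of fibrillar procollagens, had low levels throughout. ADAMTS2 (ENSG00000087116, chr5:179110853-179345461, minus strand) had 0, 1, 0, 0 and 0 counts in EA.hy926 against 9, 15, 19, 12 and 11 counts in HMEC-1. Its EA.hy926 level was at least 3.58-fold lower (adjusted p = 6.7e-08). ADAMTS14 (ENSG00000138316, chr10:70672506-70762441, plus strand) had 0 counts in each EA.hy926 library and 19, 22, 37, 29 and 34 counts in HMEC-1. The bound was 7.71-fold (adjusted p = 3.4e-09). Both were thus detected above the floor in HMEC-1 alone, at a depth where single reads move the values. ADAMTS3 differed in direction, with 13, 14, 9, 23 and 19 counts in EA.hy926 against 4, 1, 9, 0 and 2 in HMEC-1, and was not tested.

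The ADAMTS14 promoter is shown as an example of the GC-rich starts of most ADAMTS genes with a promoter sequence. It covers the 250 bases before the start, at chr10:70672256-70672505, plus strand (RefSeq, GRCh38.p14), written 5′ to 3′, and capitals mark 4 GC boxes, all as the reverse complement CCGCCC and 2 of them overlapping.
ADAMTS14: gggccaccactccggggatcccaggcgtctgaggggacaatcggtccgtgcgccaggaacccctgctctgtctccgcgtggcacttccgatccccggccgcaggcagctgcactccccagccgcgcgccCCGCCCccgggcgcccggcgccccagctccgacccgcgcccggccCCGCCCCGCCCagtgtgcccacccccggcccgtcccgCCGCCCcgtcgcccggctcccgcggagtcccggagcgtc

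ADAMTS13, the protease that cleaves von Willebrand factor multimers (ENSG00000160323, chr9:133414358-133459402, plus strand), had 0.271, 0.271, 0.228, 0.286 and 0.189 CPM in the 5 EA.hy926 libraries and 0.913, 0.809, 0.737, 0.785 and 1.13 CPM in the 5 HMEC-1 libraries. The ranges were separate at a low level, and HMEC-1 was 3.46-fold higher (log2FC -1.79, SE 0.229, adjusted p = 2.8e-07). Its substrate VWF, a member of the endothelial and substrate lists, was higher in EA.hy926 (log2FC 1.36, adjusted p = 3.2e-13 in edgeR).

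ADAMTS7 and ADAMTS12, which cleave cartilage oligomeric matrix protein, differed from each other in level. ADAMTS7 (ENSG00000136378, chr15:78759206-78811464, minus strand) had 134, 104, 127, 126 and 111 CPM in the 5 EA.hy926 libraries and 90.4, 81.0, 84.3, 84.3 and 81.8 CPM in the 5 HMEC-1 libraries. It was the most abundant ADAMTS gene in both lines, and its log2FC was inside the fold threshold (log2FC 0.51, SE 0.0508, adjusted p = 5.5e-09). Near-identical copies, the pseudogenes ADAMTS7P1, ADAMTS7P3 and ADAMTS7P4, had at most 20 counts in any library. How the counting treated reads shared with them is not given in the sources used here. ADAMTS12 (ENSG00000151388, chr5:33523535-33892019, minus strand) had 0, 2, 0, 0 and 0 counts in EA.hy926 against 59, 50, 71, 55 and 65 counts in HMEC-1. Its EA.hy926 level was at least 16.6-fold lower (adjusted p = 3.1e-12).

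The fibrillin-binding proteases ADAMTS6 and ADAMTS10 are paralogs, and they differed in opposite directions inside the fold threshold. ADAMTS6 (ENSG00000049192, chr5:65148738-65481920, minus strand) had 27.6, 27.1, 28.8, 28.6 and 28.5 CPM in the 5 EA.hy926 libraries and 17.3, 17.6, 17.4, 18.6 and 16.8 CPM in the 5 HMEC-1 libraries (log2FC 0.68, SE 0.0407, adjusted p = 1.1e-12). ADAMTS10 (ENSG00000142303, chr19:8580240-8610735, minus strand) had 8.15, 9.31, 8.88, 11.1 and 10.6 CPM in the 5 EA.hy926 libraries and 14.3, 15.1, 15.7, 16.3 and 14.7 CPM in the 5 HMEC-1 libraries (log2FC -0.66, SE 0.0711, adjusted p = 1.9e-08). In each gene the ranges of the lines were separate.

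Of the remaining ADAMTS genes, ADAMTS16 was called higher and ADAMTS17 and ADAMTS18 were called lower in EA.hy926. ADAMTS16, known from the kidney and gonads (ENSG00000145536, chr5:5140330-5320304, plus strand), had 276, 286, 252, 256 and 234 counts in EA.hy926 against 0, 0, 0, 1 and 2 counts in HMEC-1. Its EA.hy926 level was at least 84.7-fold higher (adjusted p = 9.1e-18). ADAMTS18, its closest paralog (ENSG00000140873, chr16:77247813-77435034, minus strand), had 0.650, 0.844, 0.854, 0.885 and 0.916 CPM in the 5 EA.hy926 libraries and 2.20, 2.23, 2.13, 2.06 and 2.09 CPM in the 5 HMEC-1 libraries. Here HMEC-1 was higher in all libraries, by 2.57-fold (log2FC -1.36, SE 0.140, adjusted p = 1.0e-08). ADAMTS17, a gene in which mutations cause a short-stature syndrome (ENSG00000140470, chr15:99971437-100342005, minus strand), had 1, 2, 4, 5 and 3 counts in EA.hy926 against 31, 28, 24, 22 and 21 counts in HMEC-1. HMEC-1 was 7.35-fold higher, a value that rests on 1 to 5 counts per EA.hy926 library (log2FC -2.88, SE 0.337, adjusted p = 7.8e-08). ADAMTS19 had 2 to 8 counts in EA.hy926 against 0 to 4 in HMEC-1, without a test.

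Of the 15 members that were not tested, 9 had at most 3 counts in every library of both lines, which were MMP3, MMP8, MMP12, MMP13, MMP20, MMP26, MMP27, ADAMTS5 and ADAMTS8. Among these, MMP8, MMP12 and MMP27 had 0 counts in all 10 libraries. The other 6 were MMP9, ADAMTS3, ADAMTS9, ADAMTS19 and ADAMTS20, with their highest counts in EA.hy926, and MMP21, with 1, 0, 0, 0 and 0 counts in EA.hy926 against 7, 4, 0, 1 and 2 in HMEC-1. Expression below the floor was not detectable at this depth, which does not show that it was absent.

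To compare levels between genes, CPM were divided by the exon length in kb. On this scale, the summed level of the MMP genes was 768 ± 29.99 CPM per kb in EA.hy926 against 155 ± 2.42 in HMEC-1 (SD). The TIMP genes summed to 493 ± 20.5 and 232 ± 3.80 CPM per kb, and the ADAMTS genes to 28.5 ± 1.70 and 22.9 ± 0.545. Hence ADAMTS RNA made up a small share of the members in both lines, and every summed level was higher in EA.hy926. In EA.hy926 the leading genes were MMP2 with 501 ± 30.6, TIMP3 with 244 ± 9.39, MMP1 with 207 ± 3.32 and TIMP1 with 171 ± 9.14 CPM per kb, followed by TIMP2 with 77.8 ± 3.18 and MMP14 with 51.9 ± 2.35. In HMEC-1 the order was TIMP2 with 141 ± 1.31, MMP14 with 88.8 ± 1.43, TIMP1 with 86.0 ± 4.00 and MMP2 with 53.2 ± 1.33 CPM per kb. MMP14 and TIMP1 were neighbours in HMEC-1 whose values overlapped within their spread. The composition of the MMP pool also differed, with MMP2 at 65.2% ± 1.53 of the summed MMP level in EA.hy926 against 34.4% ± 0.516 in HMEC-1, and MMP14 at 6.77% ± 0.395 and 57.4% ± 0.451. TIMP3 accounted for 49.5% ± 0.626 of the summed TIMP level in EA.hy926 against 1.48% ± 0.0279 in HMEC-1.

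The ratio of the summed TIMP level to the summed MMP level was 0.643 ± 0.0143 in EA.hy926 (range 0.623 to 0.654) and 1.501 ± 0.0309 in HMEC-1 (range 1.47 to 1.54), so that the lines did not overlap. This ratio was formed after the member values had been seen and concerns RNA, not protein or enzyme activity. The plot of length-scaled levels shows the genes that carry these sums.

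**Figure D4:**
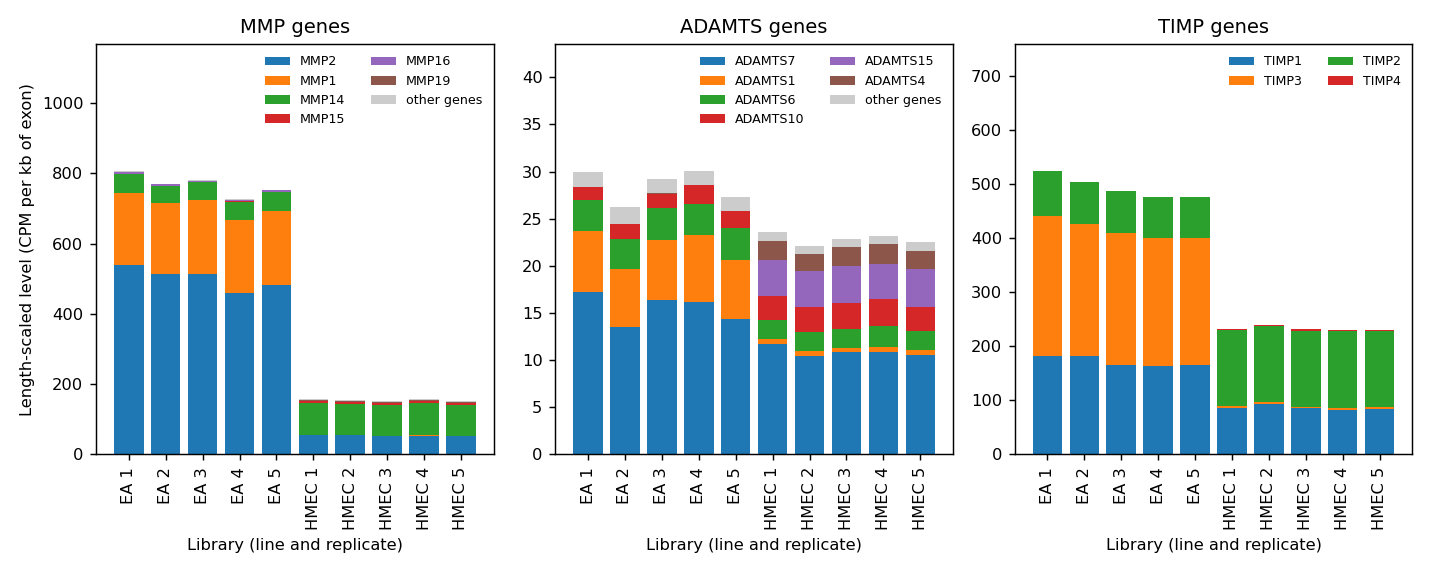
Summed CPM per kb of exon in each library, as bars stacked by gene on a linear axis from 0, in a panel each for the MMP, ADAMTS and TIMP genes, with a separate scale per panel (EA, EA.hy926, and HMEC, HMEC-1). MMP2 and MMP1 fill most of the EA.hy926 MMP bars and MMP14 and MMP2 those of HMEC-1, and TIMP3 is 244 ± 9.39 CPM per kb in EA.hy926 and 3.44 ± 0.0866 in HMEC-1.

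Genes around these families were examined as 8 lists, with 94 genes of which 71 were tested and 38 (53.5%, against 35.5% of all genes tested) called, 14 higher and 24 lower in EA.hy926. Of all genes tested, 19.1% were called higher and 16.4% lower. In a list of zymogen activators and related genes, 7 were tested, none was called higher and 2 were lower. These were PLAT (tissue plasminogen activator, log2FC -1.70) and HPSE (heparanase, -1.24), which is not itself a zymogen activator. Of 8 tested further inhibitors and clearance receptors, 3 were higher, namely SPOCK1 (testican-1, 6.96), CST3 (cystatin C, 3.09) and SERPINB2 (plasminogen activator inhibitor-2, 2.33). In the same list, SERPINE2 (protease nexin-1, -6.98) and RECK, a membrane-anchored inhibitor of MMPs (-2.55), were lower. Of 6 tested ADAMTS-like genes, whose products lack the protease domain, 4 were lower, among them ADAMTSL1 (-6.87) and ADAMTSL3 (0 to 2 counts in EA.hy926 against 2489 to 3220 in HMEC-1), and ADAMTSL5 was higher (1.56). Of 9 tested ADAM genes, ADAM22 (4.51) and ADAM8 (2.44) were higher, and ADAM23 (-2.24), ADAM12 (-2.18) and ADAM9 (-1.14) were lower. In the astacin list, 1 of 3 tested genes was called, PCOLCE2, an enhancer of procollagen processing (1.83).

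Of 9 tested substrates of the ADAMTS proteases and other matrix proteins, 6 were called lower in EA.hy926 and 2 higher, against 16.4% and 19.1% of all genes tested, and 2 of the 6 were at the floor in EA.hy926. VCAN, the versican gene, had 0 to 2 counts in EA.hy926 against 222 to 301 in HMEC-1, and COMP had 0 to 1 and 47 to 64. BGN (biglycan) had a log2FC of -4.69, and BCAN, the brevican gene, a log2FC of 3.58. Of 18 tested transcription factors of the AP-1, ETS and related families, 3 were higher and 2 lower. ETV1 (8.89) and ETV4 (3.38) of the ETS family were higher, as was FOSL1 (1.01), just past the fold threshold, while FOS (-1.47) and FOSB (-1.40) were lower. Of 11 tested extracellular inducers and their relatives, IL1A (4.93) and BSG, known as an inducer of MMPs (1.09), were higher, and 5 were lower, among them TGFB2 (-4.45), AREG (-2.50) and CCN2 (-2.48). All named genes in these lists had adjusted p-values below 0.05 in edgeR.

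RefSeq promoter sequences, from 250 bases before to 50 bases after the start, were at hand for 26 of the 45 members and for 35116 starts in all. Each of the 26 members counts with its first listed start only, and the 35116 starts were not reduced in this way. Abundant members such as MMP1, MMP2 and TIMP2 were not among the 26. On both strands, the TATA box TATAAA was found in 7 of the 26 (26.9%), against 11.5% of all promoters. The GC box GGGCGG was found in 18 (69.2%, against 45.0%), and the AP-1 site TGANTCA in 4 (15.4%, against 7.71%). The motifs were also counted by family and position. Of the 5 chromosome 11 cluster genes in the table (MMP7, MMP8, MMP10, MMP20 and MMP27), 4 had the TATA box, 3 had the AP-1 site and none had the GC box, at a median GC content of 36.3%. The 6 other MMP promoters were mixed, with the TATA box in 2, the GC box in 4 and the AP-1 site in none, at a median GC content of 67.7%. Of 12 ADAMTS promoters, 11 had the GC box, 1 had the TATA box and 1 had the AP-1 site, at a median GC content of 71.7%. All 3 TIMP promoters had the GC box, and none had the TATA box or the AP-1 site. Among called members with a promoter sequence, those lower in EA.hy926 (TIMP4, ADAMTS2, ADAMTS12, ADAMTS13, ADAMTS14, ADAMTS17, ADAMTS18 and MMP15) each had the GC box. Of those higher in EA.hy926, TIMP3 had it and MMP7 did not, and MMP1, MMP2, MMP16, MMP28, ADAMTS1 and ADAMTS16 had no promoter sequence. The GC box was also present in MMP11, MMP14, MMP24, ADAMTS7, ADAMTS10 and TIMP1, which were tested but not called. It was absent in MMP10 and ADAMTS6, also not called. A relation of this motif to the direction of the difference was not tested.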

How the data were processed

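Human mRNA of the lines EA.hy926 and HMEC-1, left untreated and detached with trypsin, was selected with oligo(dT) beads and sequenced on an Illumina instrument, with 5 libraries per line. The values the authors deposited are raw counts per gene, neither normalized nor filtered. Reads were aligned to GRCh38 with HISAT2. The study's methods name HTSeq for counting, and the submitters' processing notes list fastp, HISAT2, featureCounts and DESeq2, so the counting tool is uncertain. Annotation release and strand setting are not given in the sources used here. The study's methods name limma for its differential expression, and edgeR was used here because the values are counts.

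From these counts, identifiers were matched to GENCODE 44 (56434 of 60448 genes), with exon overlaps from bedtools 2.31.1. Low counts were removed with edgeR's filterByExpr. It asks for a CPM equal to about 10 counts in at least 5 libraries, the number of a line, and for 15 counts in total. Libraries were scaled by TMM factors (0.942 to 0.964 in EA.hy926, 1.04 to 1.05 in HMEC-1). The quasi-likelihood test of edgeR 4.0.16 (glmQLFit, then glmQLFTest, in R 4.3.3) was run without covariates, with Benjamini-Hochberg adjustment over 16310 genes. The SE is the absolute log2FC over the square root of F. All tested members were named, with the value of every library for called members, and of each related list at most the 3 genes with the largest absolute log2FC per direction. The members and lists were chosen with earlier results of these data known. Symbols ending in a letter, such as MMP23B, lie outside the rule. Promoters came from RefSeq (GRCh38.p14), and coordinates of genes from GENCODE 44 on GRCh38. Alternatives were DESeq2 1.42.0, limma-voom 3.58.1, other scalings and filters, a fold-threshold test, a replicate block and leaving out each library. The edgeR step was tested on simulated data. Replicates of a line differed by more than sampling noise, so none was counted as deposited more than once.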

Additional observations from a re-analysis of the deposited data

Results flagged for a closer look

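Of 56 groups of 5 libraries tested for a library apart from the rest by Dixon's test, 4 exceeded the critical value of 0.71, and chance flags about 5% of groups. MMP28 in EA.hy926 had its highest library, replicate 1, at 3.98 CPM against 2.47 to 2.80 CPM in the others (gap over range 0.781). ADAMTS18 in EA.hy926 had its lowest library, also replicate 1, at 0.650 CPM against 0.844 to 0.916 CPM (0.728). ADAMTS2 in EA.hy926 had 1 count in replicate 2 and 0 in the other 4 libraries (1.0). ADAMTS12 in EA.hy926 had 2 counts in replicate 2 and 0 in the other 4 (1.0). In ADAMTS2 and ADAMTS12 the value of 1.0 follows from the tie at 0, whatever the remaining library holds. The rate of 5% does not apply to such groups.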

How the results depend on the processing

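No member changed direction under any alternative run. The number of called members was 10 of 18 tested when every library had to hold at least 10 counts, with 3 lower in EA.hy926. Over all genes, 3255 of 13107 tested were called under that filter. That filter removes the 8 called members at the floor in a line and also ADAMTS4, ADAMTS13 and ADAMTS17, which had libraries below 10 counts in EA.hy926. Without a filter, 42 members were tested and 26 were called, against 9312 of 33071 genes. Of the 26 members, 13 were higher in EA.hy926, the additional ones being ADAMTS3, ADAMTS9, ADAMTS19, ADAMTS20 and MMP9. Leaving out each library gave 20 to 23 called members, 8 to 10 higher and 12 to 13 lower, and 37 to 40 called genes of the related lists. Over all genes, 5945 to 6000 of 16518 to 16603 tested were then called. Shares of all genes by direction were not formed for the alternatives. The same replicate numbers do not pair the libraries, with correlations of same-numbered deviations of -0.023 to 0.039. The replicate block gave 20 called members of 30 tested, against 5786 of 16310 genes.

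TIMP1 was past the fold threshold with at least 10 counts in every library (log2FC 1.00) and without EA.hy926 replicate 3, 4 or 5 or HMEC-1 replicate 2 (1.01 to 1.02). MMP11 was past it with library totals (-1.04), which move the median of all genes by -0.13, and MMP24 without HMEC-1 replicate 2 (-1.001). Fitted values of genes at the floor moved with single reads, from -5.23 to -6.67 for ADAMTS2 and from -6.71 to -8.86 for ADAMTS12 without EA.hy926 replicate 2 and from 8.64 to 9.57 for ADAMTS16 without HMEC-1 replicate 5.

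The summed length-scaled level of all members, 1289.5 CPM per kb in EA.hy926 against 410.2 in HMEC-1, was 1674 and 587 with the longest coding transcript as length, 1229 and 429 with library totals, and 1272 to 1304 and 409 to 412 when each library was left out. The TIMP to MMP ratio, an alternative added after seeing the data, was 0.584 and 1.80 with the coding transcript length.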
